A study of Mus musculus with 9 samples.

Results

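The Slit ligands and their Robo receptors, with the srGAP proteins that act downstream of the receptors, were followed across 3 regions of the optic cup of E11.5 mouse embryos. The set holds 8 genes, taken by name: the ligand genes Slit1, Slit2 and Slit3, the receptor genes Robo1, Robo2 and Robo3, and the srGAP genes Srgap1 and Srgap2. They are 8 of 18193 genes with a probe set that the platform annotation gives to 1 gene, and 18 of the 45101 probe sets on the array name a member. RNA came from 3 laser-microdissected groups with 3 Affymetrix arrays each. The fissure group held cup cells lying no more than 5 cell diameters from the edge of the optic fissure, and the nasal and temporal groups were taken centrally on either side. The labels give no strain, genotype or treatment for any group. They letter the arrays of a region A, B and C, and the series calls them biological replicates, without saying whether a letter stands for the same embryos in all regions.

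Slits are large secreted proteins, and Robos are single-pass membrane receptors of the immunoglobulin superfamily. Binding of a Slit to a Robo mostly repels a growing axon or a migrating cell, and srGAPs, which bind the intracellular part of Robo, pass the signal to the actin cytoskeleton. In the vertebrate eye the pathway is known for guiding the axons of retinal ganglion cells within the retina, into the optic nerve and at the optic chiasm. At E11.5 the optic fissure, a gap in the ventral cup, is closing, and few ganglion cells have formed.

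In the main fit, which has no block for the replicate letter, no member's brightest probe set passed the test between regions. A dimmer Slit2 probe set was lower in the fissure than in the mean of nasal and temporal cup. It was 1 of 11 tested member probe sets, beside 5.74% of all tested probe sets that passed in either direction. That call was lost when fissure array A or C was left out. Slit2 passed as a gene when the letter was a block, and without a block when array weights or the mean over its probe sets were used. Levels are linear intensities of probe sets, changes are differences of log2(intensity + 16), and a gene passed at a limma p below 0.05 after Benjamini-Hochberg adjustment over all 12773 tested genes. Each gene stands for its brightest probe set (by mean of the 9 arrays), and it was tested if that probe set lay above the array's 40th percentile (15.7 to 17.5) on at least 3 arrays. By this filter 5 of the 8 members were tested: Slit2, Robo1, Robo2, Srgap1 and Srgap2. The fissure was set against nasal cup, temporal cup and the average of both, here the nasal-temporal mean. Against the nasal-temporal mean 0 of the 5 passed, where 8.60% of all tested genes did. For fissure against nasal 0 of 5 passed (6.37% of all tested genes), for fissure against temporal 0 of 5 (5.36%), and for nasal against temporal 0 of 5 (0.0470%). At an unadjusted p below 0.05 in limma the member counts were also 0 in all 4 comparisons, against 22.1%, 18.5%, 18.2% and 2.91% of all tested genes. With the replicate letter as a block, 1 of 5 members, Slit2, passed for fissure against the nasal-temporal mean (16.9% of all tested genes), and 1 of 5, again Slit2, for fissure against temporal (12.1%). The blocked counts stayed at 0 for fissure against nasal (12.4%) and for nasal against temporal (0.133%). The median log2 change of the 5 tested members was 0.14 for fissure against the nasal-temporal mean, beside 0.04 over all tested genes.

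**Figure D1:**
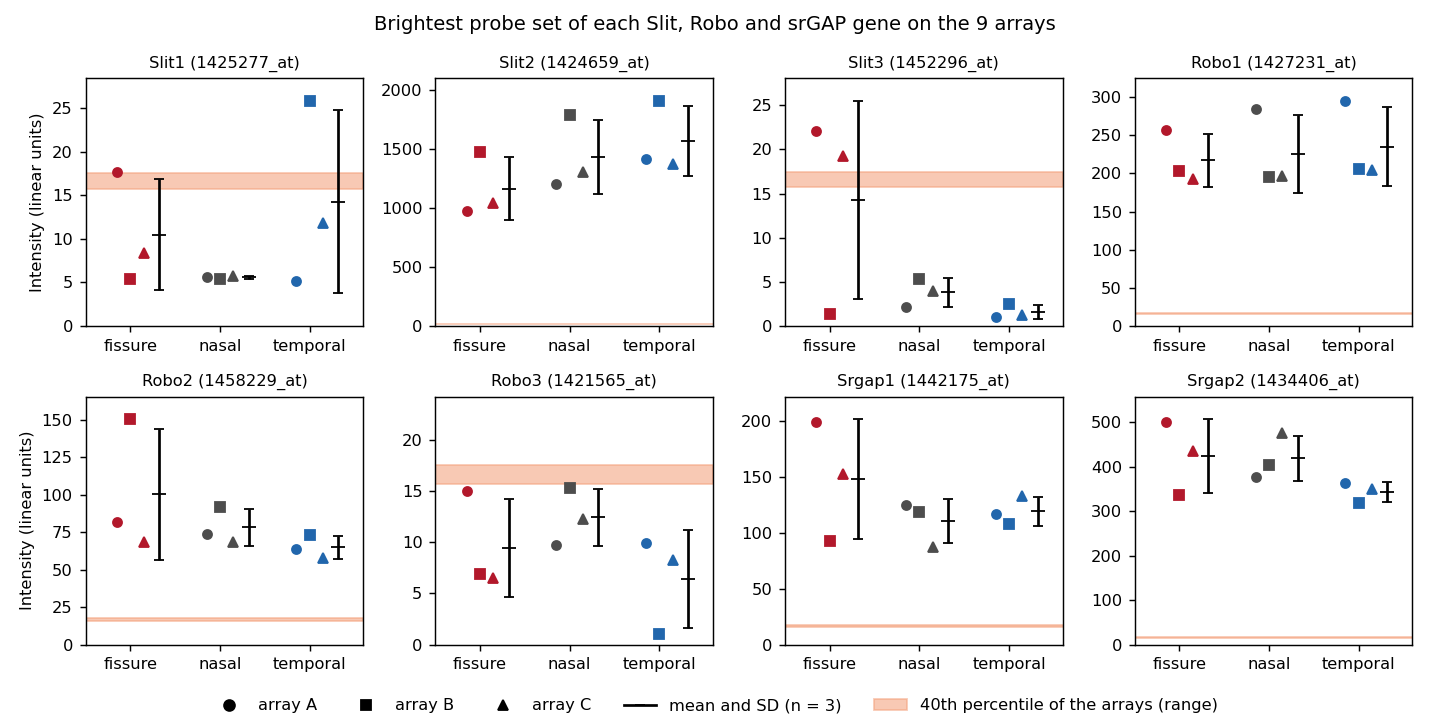
Intensity (linear units) of the brightest probe set of each member on the 9 arrays, by region, with circles, squares and triangles for arrays A, B and C, black bars for the mean and SD of 3 arrays, and a band for the range of the arrays' 40th percentile. Slit1, Slit3 and Robo3 lie around or below the band. In the other 5 genes the fissure overlaps the other regions, and every nasal array lies above every temporal array for Srgap2 alone.

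The arrays themselves set some limits. Array medians ran from 27.4 to 30.2. Fissure array B correlated with fissure arrays A and C at 0.973 and 0.966 over all probe sets, and with the nasal and temporal arrays at 0.970 to 0.974, so it was no more like its own region than like the others. The ratio of 3-prime to 5-prime Gapdh signal, a measure of RNA integrity and labelling, was lowest on array B in each region, at 4.93 in fissure, 4.90 in nasal and 4.46 in temporal cup, against 6.08 to 14.96 on the other arrays. Within each letter the ratio was highest in the fissure. On arrays A and C it was 8.12 and 14.96 in fissure, 6.08 and 8.77 in nasal and 7.42 and 6.69 in temporal cup. The part that RNA integrity plays in the values below was not tested. Marker genes of the captured cells moved with the fissure. Against the nasal-temporal mean 5.72% of all tested genes were higher in the fissure and 2.88% lower. Of the 11 tested macrophage and leukocyte genes 11 were higher there, and the summed intensity of that list was 2104 to 2816 in fissure, 469 to 676 in nasal and 380 to 598 in temporal cup. The lens list summed to 1385 to 1968, 379 to 554 and 305 to 1003 in the same order of regions. Of 6 tested genes of the ventral cup and optic stalk 5 were higher in the fissure (sums 7787 to 9946, 1251 to 2417 and 1925 to 2404). Among these 5 is Ntn1, which passed the filter only through the fissure arrays, where it was high. Of 9 tested progenitor genes of the optic cup 2 were lower and 0 higher (sums 7474 to 8235, 9978 to 11453 and 9579 to 11540). Pax6 and Ccnd1 were the brightest of the progenitor list. Other lists held genes that were lower in the fissure, as Slit2 was with the block. Of 10 tested pigment epithelium genes 5 were lower and 2 higher, with a median log2 change of -0.60 (sums 10744 to 12919, 12763 to 15162 and 11772 to 14813). Of 6 tested surface ectoderm genes 2 were lower and 1 higher, and the list summed to 482 to 558 in fissure, 960 to 1486 in nasal and 796 to 1249 in temporal cup. Of 13 tested periocular mesenchyme genes 5 were higher and 2 lower (sums 1402 to 2963, 884 to 1465 and 736 to 1601). No measured gene of these lists was listed at 0 on any array. The part that captured cells of other types play in the values below was not tested, and in such bulk samples fewer cells of a type and less RNA per cell cannot be told apart.

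Slit2 encodes the ligand best known for repelling retinal axons. Its brightest probe set, 1424659_at, read 977, 1473 and 1045 on fissure arrays A, B and C. It read 1206, 1791 and 1305 on nasal arrays A, B and C, and 1414, 1909 and 1375 on temporal arrays A, B and C. Array B was the highest of its region in all 3 regions, so the regions overlapped, yet within each letter the fissure array was the lowest and the temporal array the highest. The fissure array was lowest in all 3 letters for 12.3% of tested genes, and the whole order held for 1.85%. Over all letters, fissure arrays stood apart from the others for 0 of the 5 tested members and for 14.2% of tested genes. The mean was 1165 ± 269 in fissure, 1434 ± 313 in nasal and 1566 ± 298 in temporal cup (SD, n = 3 each). Against the nasal-temporal mean, Slit2 changed by -0.36 on the log2 scale, or 0.777-fold (SE 0.19, 95% interval -0.78 to 0.05, limma adjusted p = 0.292). With the replicate letter as a block the change was the same with an SE of 0.10 (interval -0.59 to -0.13, limma adjusted p = 0.0386), a call of lower in the fissure that was made for 5.97% of tested genes. Against temporal alone the change was -0.43 (limma adjusted p = 0.331, and 0.0447 with the block, where 4.37% of tested genes were called lower), and against nasal alone -0.30 (limma adjusted p = 0.528, and 0.138 with the block). Nasal and temporal cup differed by -0.13 (95% interval -0.61 to 0.35, limma adjusted p = 0.99985). The blocked call against the mean of both sides was lost when the 3 arrays of letter A, B or C were left out (limma adjusted p = 0.284, 0.0587 and 0.202), when fissure array B alone was left out (0.0565), with a pseudocount of 1 (0.0514) and with every probe set as its own row (0.0630), while the change stayed between -0.38 and -0.34. The blocked call against temporal alone was lost under the same alternatives, with a limma adjusted p of 0.340, 0.0713 and 0.211 without letter A, B or C, 0.0557 without fissure array B, 0.0614 with a pseudocount of 1 and 0.0739 with every probe set as its own row. Both blocked calls held with quantile normalization (limma adjusted p = 0.0467 against the mean of both sides and 0.0484 against temporal). They also held with array weights (limma adjusted p = 0.0369 and 0.0291).

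The other Slit2 probe sets also had their lowest means in the fissure. Probe set 1458140_at, which the annotation ties to another sequence record than the brightest one, read 250, 342 and 285 on fissure arrays A, B and C. It read 520, 377 and 517 on nasal arrays and 617, 657 and 537 on temporal arrays, in the same order of letters. All fissure arrays lay below all nasal and temporal arrays, in 1 of the 11 tested member probe sets. Fissure arrays stood apart in either direction for 11.9% of tested probe sets. All nasal arrays also lay below all temporal ones. Nasal and temporal arrays stood apart in 2 of the 11 tested member probe sets, this one and the brightest of Srgap2, and 6.55% of tested probe sets had them apart in either direction. Within each of the 3 letters the order was fissure, nasal, temporal, as in 1.72% of tested probe sets. In a limma fit with each of 23510 probe sets as its own row, it was lower in the fissure than in the nasal-temporal mean by a log2 change of -0.83, or 0.561-fold (SE 0.16, 95% interval -1.19 to -0.48, adjusted p = 0.0108). It was the only one of the 11 member probe sets to pass, where 5.74% of tested probe sets passed and 1.92% were lower in the fissure. The change was -1.01 against temporal (SE 0.19, limma adjusted p = 0.0113) and -0.66 against nasal (SE 0.19, limma adjusted p = 0.0880). Against temporal 3.62% of tested probe sets passed and 1.26% were lower, and against nasal 3.87% passed. With the replicate letter as a block the limma adjusted p was 0.0123, 0.0138 and 0.0705 against the nasal-temporal mean, temporal and nasal cup. The blocked fit called 10.8%, 6.99% and 7.23% of tested probe sets in that order. With the block, leaving out the 3 arrays of letter A or C gave a limma adjusted p of 0.200 or 0.0799 against the nasal-temporal mean. Nasal and temporal cup differed by -0.36 (95% interval -0.77 to 0.05, limma adjusted p = 0.9999, with 0.0383% of tested probe sets passing, and 0.0510% with the block). Without fissure array A the limma adjusted p was 0.0847 against the mean of both sides and 0.0684 against temporal, and without fissure array C it was 0.0538 against the mean of both sides. Without temporal array A or B it was 0.0540 or 0.0509 against temporal. The dimmest Slit2 probe set, 1451430_at, which shares its sequence record with the brightest one, read 37.7, 63.8 and 30.2 on fissure arrays, 80.1, 62.6 and 33.5 on nasal arrays and 87.0, 68.4 and 53.0 on temporal arrays A, B and C. It changed by -0.42 against the nasal-temporal mean (95% interval -0.95 to 0.11, limma adjusted p = 0.391).

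The Slit2 probe sets also differed in how much followed the letter. Of the variation of 1424659_at over the 9 arrays (sum of squares of log2(intensity + 16)), 62.5% lay between letters and 36.3% between regions. For 1458140_at these shares were 0.0825% and 85.7%, and the medians over all tested probe sets were 31.8% and 25.2%. The log2 ratio of 1458140_at to 1424659_at within an array, each as intensity + 16, was -2.06 to -1.82 in the fissure and -2.20 to -1.18 in nasal and temporal cup, with nasal array B at -2.20. Its mean differed by -0.47 between fissure and the other regions, and an exact two-sided permutation test over the 84 splits, chosen after seeing the values, gave p = 0.119, where the smallest possible p is 0.0238. That test leaves the letters out. Within letters A, B and C the ratio differed by -0.72, -0.20 and -0.50 between the fissure and the average of the other regions. An exact two-sided permutation of the regions within letters, added after the values were seen, gave p = 0.0741 over 27 arrangements, where the smallest possible p is 0.0370. The ratio was picked from these same values, so neither p-value can decide whether the probe sets differ in their pattern over the regions.

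**Figure D2:**
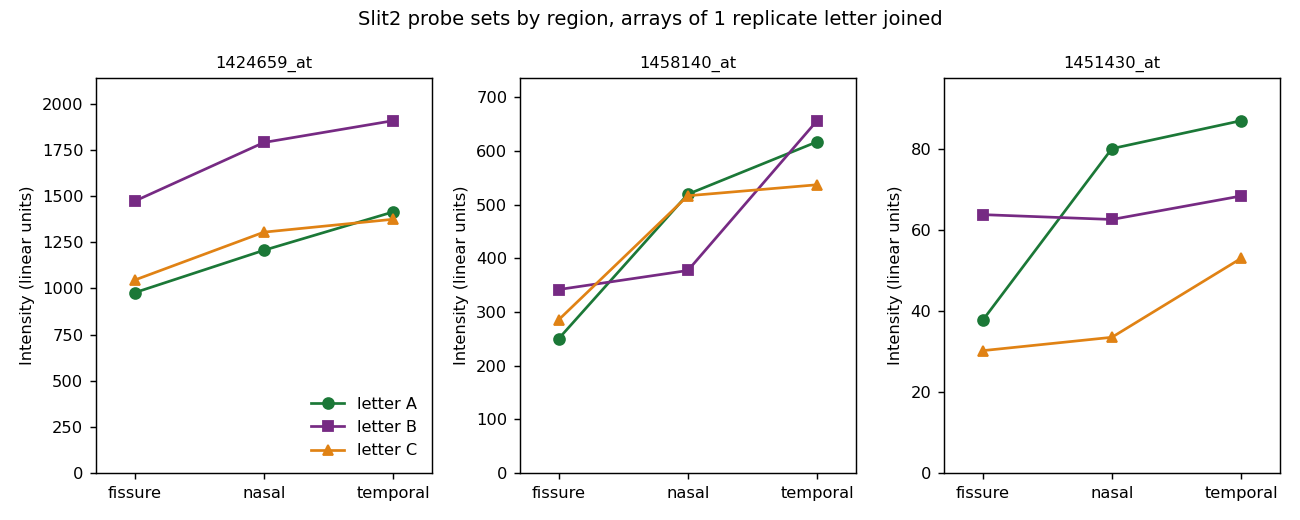
Intensity (linear units) of the 3 Slit2 probe sets by region, with lines joining the arrays of a replicate letter. The fissure array is the lowest of its letter in 1424659_at and 1458140_at for all 3 letters, and in 1451430_at for letters A and C.

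Slit1 and Slit3, the other ligand genes, were too dim to test. The brighter Slit1 probe set, 1425277_at, read 17.6, 5.4 and 8.4 on fissure arrays A, B and C, 5.6, 5.4 and 5.7 on nasal arrays and 5.2, 25.8 and 11.8 on temporal arrays. It lay above the 40th percentile on 2 of 9 arrays, 1 in the fissure and 1 in the temporal cup, and the other Slit1 probe set on 0 of 9 (2.5 to 13.6). Slit3 had 1 probe set, which read 22.1, 1.4 and 19.3 on fissure arrays, 2.1, 5.3 and 4.0 on nasal arrays and 1.0, 2.5 and 1.3 on temporal arrays. Both arrays above the 40th percentile were fissure arrays, and fissure array B was among the low ones, so the regions overlapped. At such intensities a fold change cannot be read, and a dim probe set does not show that a transcript is lacking.

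Among the receptor genes, Robo1 had close means in the 3 regions. Its brightest probe set, 1427231_at, read 257, 203 and 192 on fissure arrays A, B and C, 285, 195 and 197 on nasal arrays, and 295, 206 and 205 on temporal arrays. Array A was the highest in every region, as in 4.78% of tested genes. Of the variation, 94.0% lay between letters and 3.43% between regions. Robo1 averaged 217 ± 34.7 in fissure, 226 ± 51.3 in nasal and 235 ± 51.8 in temporal cup (SD, n = 3 each), an order in which no neighbours differed beyond their spread. The change against the nasal-temporal mean was -0.07 (95% interval -0.46 to 0.32, limma adjusted p = 0.870), and with the block the interval was -0.30 to 0.16 (limma adjusted p = 0.688). The 2 other Robo1 probe sets were dimmer, at 1.4 to 34.2 over all arrays. The changes of 1457407_at and 1445549_at were -0.33 (limma adjusted p = 0.446) and -0.53 (limma adjusted p = 0.179).

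Robo2, the receptor gene that mouse retinal ganglion cells are known to use for Slit responses, had 1 probe set. It read 81.8, 150 and 68.4 on fissure arrays A, B and C, 73.6, 92.1 and 68.6 on nasal arrays, and 63.6, 73.1 and 57.7 on temporal arrays. Array B was again the highest of its region in all 3 regions, as in 10.5% of tested genes, and fissure array B stood far above the other 8 arrays. Robo2 averaged 100 ± 43.9 in fissure, 78.1 ± 12.4 in nasal and 64.8 ± 7.77 in temporal cup (SD, n = 3 each), and the regions overlapped. The change against the nasal-temporal mean was 0.36 (SE 0.20, 95% interval -0.09 to 0.80, limma adjusted p = 0.342, and 0.109 with the block). Without fissure array B it was 0.07 (limma adjusted p = 0.815), in a fit that keeps the high nasal and temporal arrays B. With the block and the 3 arrays of letter B left out it was 0.15 (limma adjusted p = 0.355). Against temporal alone Robo2 changed by 0.46 (limma adjusted p = 0.329, and 0.0928 with the block). The ganglion cell and newborn neuron list, to which Robo2 does not belong, summed to 323 to 794 in fissure, 454 to 845 in nasal and 696 to 974 in temporal cup, with 338 on fissure array B. Robo3, a divergent receptor known from commissural axons, was below the 40th percentile on all 9 arrays with its brighter probe set (1.0 to 15.3) and above it only on nasal array A, at 20.1, with the other (0.6 to 4.1 on the remaining arrays).

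For both srGAP genes the fissure arrays overlapped those of the other regions. Srgap1 read 199, 92.6 and 152 on fissure arrays A, B and C, 125, 118 and 87.6 on nasal arrays, and 116, 108 and 133 on temporal arrays with its brighter probe set, 1442175_at. Fissure array A was the highest and fissure array B among the lowest of the 9. Srgap1 averaged 148 ± 53.3 in fissure, 110 ± 19.8 in nasal and 119 ± 12.9 in temporal cup (SD, n = 3 each), and changed by 0.28 against the nasal-temporal mean (95% interval -0.17 to 0.73, limma adjusted p = 0.474). The change was 0.06 without fissure array A (limma adjusted p = 0.942) and 0.55 without fissure array B (limma adjusted p = 0.0633), and with array weights, which count fissure array B less, it was 0.57 (limma adjusted p = 0.0133). The other Srgap1 probe set read 0.5 to 6.1 and was not tested.

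Srgap2, whose product is best known for its part in the shape of cortical neurons, read 500, 336 and 436 on fissure arrays A, B and C, 376, 404 and 475 on nasal arrays, and 363, 319 and 350 on temporal arrays with its brightest probe set, 1434406_at. Every nasal array lay above every temporal array, and fissure array B lay among the temporal ones. Of the 5 tested members this was the only one with nasal and temporal arrays apart, where 6.80% of tested genes had them apart in either direction. The change against the nasal-temporal mean was 0.14 (95% interval -0.20 to 0.48, limma adjusted p = 0.651), and nasal exceeded temporal cup by 0.27 (95% interval -0.12 to 0.66, limma adjusted p = 0.99985). Its probe sets disagreed in sign. Probe set 1434407_at, designed from the same sequence record, read 44.9, 62.2 and 29.9 on fissure arrays, 64.2, 72.8 and 69.0 on nasal arrays and 57.0, 87.0 and 63.9 on temporal arrays, a change of -0.49 that did not pass (SE 0.18, limma adjusted p = 0.174, and 0.0614 with the block). Probe set 1429884_at changed by 0.30 (limma adjusted p = 0.559), and the remaining one read 0.9 to 7.5 and was not tested.

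**Figure D3:**
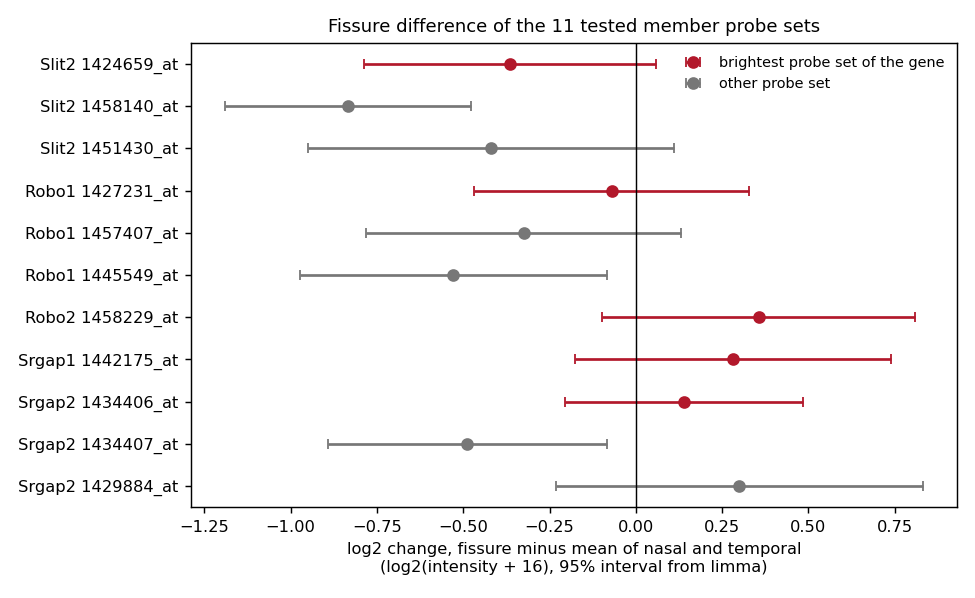
Log2 change of the 11 tested member probe sets, fissure minus the nasal-temporal mean, on the log2(intensity + 16) scale, with 95% intervals from a limma fit over all probe sets without a block, in red for a gene's brightest probe set and grey for its others. All 3 Slit2 probe sets lie below 0 and only 1458140_at passed the adjusted threshold, while Srgap2 probe sets lie on both sides.

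The rest of the pathway was counted from 4 lists holding 47 genes, of which 44 had a named probe set and 42 were tested. Against the nasal-temporal mean 4 were higher in the fissure and 1 lower, which is 11.9% of the 42. Among the 4 is Ntn1, which passed the filter only through the fissure arrays, where it was high, so 11.9% is not read as an excess over all tested genes. Of all tested genes 8.60% passed, 5.72% higher and 2.88% lower. With the block 8 were higher and 2 lower, 23.8% of the 42, beside 16.9% of all tested genes. The median log2 change of the 42 was 0.06, beside 0.04 over all tested genes.

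Co-receptors and other extracellular partners held 3 of the genes that were higher. Flrt2 encodes a membrane protein of the FLRT family, whose relative FLRT3 is a known Robo1 co-receptor. It read 6696 ± 138 in fissure, 2070 ± 387 in nasal and 1974 ± 374 in temporal cup (SD, n = 3 each), a log2 change of 1.74 (SE 0.16, limma adjusted p = 5.70e-05). Flrt1, of the same family, read 155 ± 32.6, 54.7 ± 19.3 and 51.7 ± 13.4 in fissure, nasal and temporal cup (log2 change 1.31, SE 0.20, limma adjusted p = 0.00150). Flrt3 itself changed by -0.28 and did not pass (limma adjusted p = 0.501). Ntn1 encodes netrin-1, the attractant whose receptor Dcc can be silenced by Robo. It read 270 ± 135 in fissure, 2.93 ± 2.76 in nasal and 12.2 ± 1.62 in temporal cup (log2 change 3.49), and it is also in the ventral list above. Its nasal and temporal means lay below the 40th percentile, so it passed the filter through the fissure arrays, and its p-value is left out for that reason. Its change has no fixed size: it was 5.18 with a pseudocount of 1, 2.12 with 64 and 1.91 with the mean over its probe sets. Dcc, at 38.5 ± 10.6, 21.97 ± 8.33 and 31.2 ± 9.61 in fissure, nasal and temporal cup, changed by 0.36 (limma adjusted p = 0.295, and 0.0441 with the block). Robo4, the Robo of vascular endothelium, changed by -0.08 (limma adjusted p = 0.825). In limma 0 of 10 tested endothelial genes, Robo4 among them, passed and 3 had an unadjusted p below 0.05, beside 8.60% and 22.1% of all tested genes. With the block 2 of the 10 were higher in the fissure and 0 lower, where 16.9% of all tested genes passed in either direction.

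Heparan sulfate chains bind Slit and Robo together, and 2 of the 13 tested genes of these proteoglycans and their synthesis passed, in opposite directions. Against the nasal-temporal mean 8.60% of all tested genes passed. Gpc4, which encodes the core protein glypican-4, read 626 ± 104 in fissure, 374 ± 88.8 in nasal and 382 ± 26.9 in temporal cup (log2 change 0.71, SE 0.17, limma adjusted p = 0.0225). Without fissure array A, fissure array C or nasal array A its adjusted p was 0.0725, 0.135 or 0.0519. Hs6st2, an enzyme that adds sulfate to the chains, read 169 ± 45.1, 336 ± 32.3 and 308 ± 37.2 in fissure, nasal and temporal cup (log2 change -0.89, SE 0.16, limma adjusted p = 0.00567).

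Inside the cell, 0 of 14 tested adaptors and actin regulators and 0 of 5 genes of receptor turnover passed in limma against the nasal-temporal mean, with 3 and 0 at an unadjusted p below 0.05. Of all tested genes 8.60% passed and 22.1% had such an unadjusted p. With the block 1 adaptor gene was higher and 1 lower, and 0 genes of receptor turnover passed, beside 16.9% of all tested genes. Against temporal alone, 1 adaptor gene was lower in the fissure, where 5.36% of all tested genes passed in either direction. It was Pak3, a kinase that acts on the actin cytoskeleton, named after its value was seen, at 188 ± 66.4 in fissure, 215 ± 61.3 in nasal and 464 ± 155 in temporal cup (log2 change -1.24 against temporal, SE 0.28, limma adjusted p = 0.0252). Its adjusted p against temporal was 0.120 and 0.0979 without fissure arrays A and C, and 0.0568 and 0.0964 without temporal arrays A and B. Pak3 differed between nasal and temporal cup by -1.04, which passed only in fits with the block (limma adjusted p = 0.836 without it and 0.0164 with it). Of the 42 genes, 0 passed for nasal against temporal in the limma fit that left the block out, and 2 had an unadjusted p below 0.05. Over all tested genes these shares were 0.0470% and 2.91%.

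**Figure D4:**
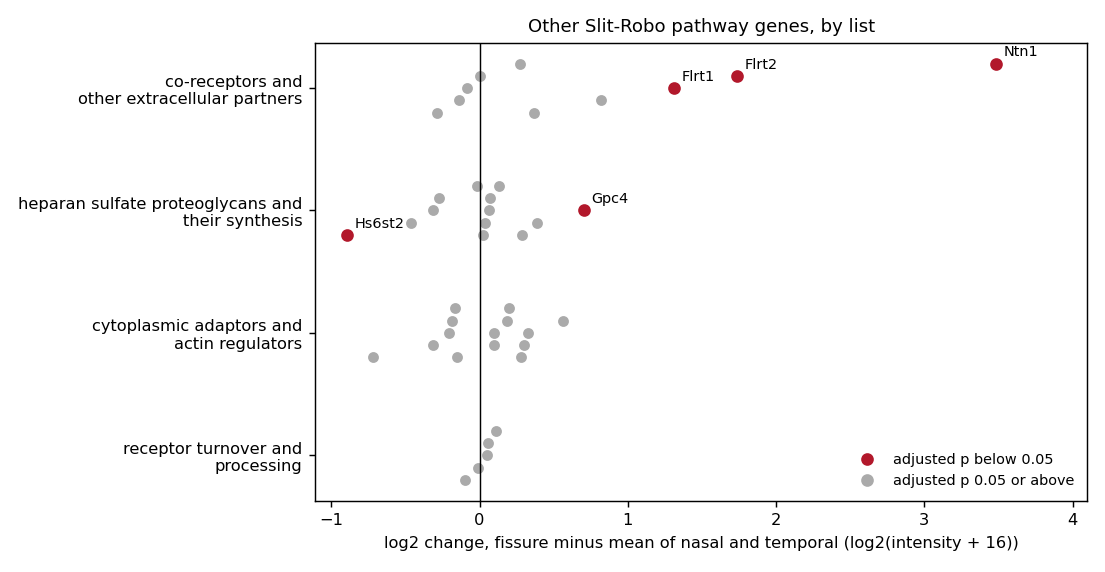
Log2 change of 42 other Slit-Robo pathway genes, fissure minus the nasal-temporal mean on the log2(intensity + 16) scale, 1 point per gene by list, in red where the limma adjusted p is below 0.05. The genes that passed are Flrt2 at 1.74, Flrt1 at 1.31, Gpc4 at 0.71, Hs6st2 at -0.89 and Ntn1, drawn at 3.49, a value that depends on the pseudocount.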

How the data were processed

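The authors deposited 1 intensity per probe set and array on a linear scale. Per the labels, total RNA was labelled with biotin by the Affymetrix protocol. Summarisation and scaling are not given in the sources used here. The mean after trimming 2% from each end was 150.0 on every array, so the values were used without further scaling. Detection calls are not used here, and the number of arrays limits the precision.

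Names came from the platform annotation (34945 probe sets with 1 symbol, 932 with several, 9160 unnamed and 64 controls) and were checked against RefSeq GRCm38.p6, with 0 symbols updated. Intensities became log2(intensity + 16). Region means over all 9 arrays were fitted with limma 3.58.1 in R 4.3.3 (lmFit, eBayes). The fit was tested on simulated data, and the outcome of that test is not given here. Alternatives were other filters, pseudocounts, normalization, probe set handling, a replicate block, array weights and leaving out arrays. Deviations from region means correlated at 0.166 to 0.486 in the 9 pairs of arrays sharing a letter and at -0.438 to 0.218 in the 18 others. All 9 exceeded 0.1, so the letters were taken as a pairing, from the data and not the labels. Fissure array A correlated with nasal and temporal arrays A at 0.166 and 0.229, and with nasal and temporal arrays C at 0.184 and 0.218. For this array the cut of 0.1 does not single out the letter. A p-value here reflects only how far these arrays scatter. The series calls them biological replicates, but embryos are not named, and how much of the scatter is technical was not tested.

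The members and lists were chosen with earlier results of these data known. Named were all members, up to 4 passing genes per pathway list with the smallest p, and the genes most alike to members that passed without the block, of which there were 0. Flrt3, Dcc and Robo4 did not pass without the block and were named outside this rule. Pak3 and the ratio of Slit2 probe sets were picked after their values were seen. 1 further pathway list is not reported here.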

Additional observations from a re-analysis of the deposited data

How the results depend on the processing

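By their brightest probe sets, the count of members that passed stayed at 0 in all 4 comparisons under the filter alternatives, pseudocounts of 1 and 64, quantile normalization, every probe set as its own row and each of 9 arrays left out. It was also 0 with only the regions compared, which was run for the 3 comparisons between single regions. For fissure against the nasal-temporal mean it was 1 with the mean over a gene's probe sets (Slit2), 1 with the replicate block (Slit2) and 2 with array weights (Slit2 and Srgap1). It was 1 with array weights for fissure against nasal (Srgap1), and 1 with the replicate block and 3 with array weights for fissure against temporal (Slit2, Srgap1 and Srgap2). Alternatives added after seeing the data gave 1 for the block with quantile normalization and 1 for the block with array weights, each against the nasal-temporal mean and against temporal alone, and 0 for the block in the other added forms. The block changed no other call of a member. Counts over all genes against the nasal-temporal mean were 1098 without the block, 2165 with it and 4099 with array weights, and 545 to 1721 with 1 array left out. Of the changes given for members and named pathway genes, 0 reversed among those that passed, and changes that had not passed changed sign in 53 cases. Not all of these lay near 0. For fissure against nasal, Robo2 changed by 0.25 in the main fit and by -0.04 without fissure array B. For fissure against temporal, Srgap1 changed by 0.23, and by -0.008 with the block and the 3 arrays of letter A left out. Slit1, Slit3 and Robo3 entered only the fit with no filter, over 18193 genes, where they did not pass, and their signal near the low end of the arrays limits that fit.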
